A study of Mus musculus with 12 samples.

Results

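Immediate early genes and inducible heat shock genes were followed across sorted mouse mammary cells from control and ovariectomized mice. The set holds 35 genes named by symbol: AP-1 subunits, Egr and Nr4a factors, Klf factors and Myc, other early response proteins, feedback inhibitors and heat shock proteins. All probes annotated to these symbols were taken. Of the 35 genes, 34 had an annotated probe (54 probes) and 32 had a probe that passed the detection filter (47 probes), out of 11292 genes tested and 19057 genes on the array. Fosl1, an AP-1 subunit, had no annotated probe here. Nr4a1, a nuclear receptor, and Ier5, an early response protein, had a probe that was detected in 0 samples.

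Immediate early genes are transcribed within minutes of a growth factor, stress or injury signal, without new protein synthesis, from promoters bound by pre-existing factors such as SRF (at CArG boxes), CREB and ternary complex factors downstream of ERK. Many encode transcription factors (Fos and Jun proteins form the AP-1 dimer, Egr proteins bind GC-rich sites), and others encode phosphatases and RNA-binding proteins that switch the response off. Heat shock genes are driven by HSF1 bound to heat shock elements when unfolded protein accumulates. Both programs are known to be set off by enzymatic digestion and sorting of solid tissues, mammary gland included.

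All groups were female FVB/NJ mice, and no transgene or other allele was labelled. For each of 2 ovariectomized (ovx) pools, 6 mice were operated on at 8 weeks of age, and glands were taken 4 weeks later; 2 pools of control mice were handled alike, and their ages and numbers were not given in the sources used here. Dissociated cells negative for CD45, CD31 and TER119 were split into a CD29-high CD24+ fraction enriched for mammary stem cells (MaSC-enriched, which also holds basal and myoepithelial cells) and a CD29-low CD24+ luminal fraction. Control pools 1 and 4 and ovx pools 2 and 3 each gave both fractions, so each of the 4 groups had 2 RNA samples, each a pool of animals. The 8 RNAs were run on 12 Illumina BeadChip arrays, 4 of them a second array of an RNA already run. Each value is a level of a sorted population, so fewer cells of a type and less RNA per cell cannot be told apart.

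The arrays detected 17705 to 18903 probes, except that of the MaSC-enriched sample of control pool 1, which detected 12994 probes and had a higher detection floor (log2 7.29 against 5.73 to 5.93). The basal genes Krt5, Trp63 and Myh11 were higher in every MaSC-enriched sample than in every luminal sample, and Krt18, Krt19 and Foxa1 were higher in every luminal one. Proliferation genes separated control pool 4 from the rest: the mean log2 level of 7 such genes was 11.09 in its MaSC-enriched and 11.46 in its luminal sample, against 6.96 to 8.59 in the other 6 samples. Markers of the cells sorted out with CD31 and CD45 were also present: the mean over 5 endothelial genes was 9.06 to 10.38 in MaSC-enriched and 7.37 to 8.10 in luminal samples, and that over 5 blood and immune genes 7.18 to 8.25 and 6.09 to 6.88. Of the latter, Lyz2 and Cd74 were detected in all 8 samples, Cd3e and Csf1r in 5 each, and the leukocyte gene Ptprc in 0. The mean over 4 pericyte genes was 7.85 to 9.11 in MaSC-enriched and 6.24 to 6.94 in luminal samples. A list of 4 skeletal muscle genes averaged 9.52 and 10.25 in the ovx luminal samples and 5.58 to 6.77 in the others. Of 5 adipocyte genes, Fabp4, Plin1 and Cidec were not detected in any sample, while the adipokine gene Lep stood at 9.84 and 11.20 in ovx MaSC-enriched samples and at 5.30 to 5.77 elsewhere, and Adipoq, detected in 3 samples, at 8.24 and 6.88 against 4.98 to 6.35.

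Stretches upstream of the start site are shown for Egr2, the member whose fraction difference was over 1 log2 unit in all 4 pools. Others are shown for Hspa1a, Hspa1b, Hspb1 and Jun, which hold the heat shock element letters GAANNTTC and were lower in control pool 4 in both fractions. Dnajb1 was also lower in that pool in both fractions, but its 2 listed windows held no such element. Fosl2 also holds GAANNTTC and differed by -0.64 in MaSC-enriched and 0.44 in luminal cells (control pool 4 minus control pool 1). Of the members with the other phase, TTCNNGAA, Hsph1 was higher in control pool 4 (0.16 and 1.70) and Egr2 lower (-0.92 and -0.68). A link between these letters and the direction was not tested. The stretches shown were picked so that the letters bound by SRF and HSF1 can be read. They come from RefSeq (GRCm38.p6), 250 bases before the start, 5′ to 3′ on the gene's strand, and 28 of the 35 members had an entry. Capitals mark a CArG box in Egr2 and the heat shock element letters GAANNTTC in the others.
Egr2, chr10:67537619-67537868, plus strand: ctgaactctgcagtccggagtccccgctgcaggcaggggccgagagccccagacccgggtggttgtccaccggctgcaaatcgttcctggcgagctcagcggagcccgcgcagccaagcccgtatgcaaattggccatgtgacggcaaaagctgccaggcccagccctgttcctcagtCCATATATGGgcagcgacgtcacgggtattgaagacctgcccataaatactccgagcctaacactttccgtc
Hspa1a, chr17:34972157-34972406, minus strand: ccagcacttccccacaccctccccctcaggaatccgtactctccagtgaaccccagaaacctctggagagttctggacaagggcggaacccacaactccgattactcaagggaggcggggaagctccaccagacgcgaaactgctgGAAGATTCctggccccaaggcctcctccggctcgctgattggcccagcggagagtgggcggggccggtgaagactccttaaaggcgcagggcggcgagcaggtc
Hspa1b, chr17:34959239-34959488, minus strand: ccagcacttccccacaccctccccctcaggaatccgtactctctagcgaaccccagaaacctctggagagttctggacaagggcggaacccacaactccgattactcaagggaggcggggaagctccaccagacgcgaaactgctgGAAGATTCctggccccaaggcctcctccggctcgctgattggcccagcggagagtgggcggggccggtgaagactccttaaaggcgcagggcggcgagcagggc
Hspb1, chr5:135887669-135887918, plus strand: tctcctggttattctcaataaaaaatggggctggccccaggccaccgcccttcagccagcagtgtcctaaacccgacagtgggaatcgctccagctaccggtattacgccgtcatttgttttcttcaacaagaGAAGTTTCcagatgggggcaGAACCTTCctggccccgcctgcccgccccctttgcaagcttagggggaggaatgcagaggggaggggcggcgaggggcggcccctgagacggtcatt
Jun, chr4:95052223-95052472, minus strand: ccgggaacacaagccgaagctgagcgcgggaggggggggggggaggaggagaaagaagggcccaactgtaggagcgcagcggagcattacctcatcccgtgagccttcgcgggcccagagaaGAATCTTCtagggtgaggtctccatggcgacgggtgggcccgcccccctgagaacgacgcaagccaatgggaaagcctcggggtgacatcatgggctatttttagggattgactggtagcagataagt
The CArG box of Egr2 began 72 bases before this start, 1 of 5 starts listed for the gene. Hspa1a and Hspa1b are neighbouring genes that encode nearly the same inducible Hsp70, and their windows were identical at 247 of 250 positions, with the element starting 104 bases before the start in both. Hspb1 held 2 such elements, starting 117 and 97 bases before the start, and Jun 1, at 128 bases.

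Over both strands, GAANNTTC was present in 5 of the 28 members (Fosl2, Jun, Hspa1a, Hspa1b and Hspb1) and in 7.73% of the 27025 genes with an upstream window. Its other phase, TTCNNGAA, was present in Egr2 and Hsph1, against 8.11% of all genes. A CArG box was found in Egr2 and Zfp36, against 1.62% of all genes. A gene counted if any of its listed starts held the letters, and Egr2 had 5 starts. Fosl1, Egr1, Egr3, Ier2, Myc, Hspa8 and Hsp90aa1 were not among the 28 members, so their upstream letters were not read. The Egr site GCGNGGGCG was found in 10 members (Fosb, Fosl2, Btg2, Nr4a1, Nr4a2, Klf2, Klf4, Zfp36, Socs3 and Gadd45b), against 5.33%. The cAMP response element TGACGTCA was in Dusp1 and Btg2, against 1.77%. The shorter form TGACG, which every TGACGTCA contains, was in 14 members (Fos, Fosb, Junb, Egr2, Atf3, Dusp1, Btg1, Btg2, Nr4a1, Nr4a2, Klf2, Klf4, Hspb1 and Dnajb1), against 19.8%. The AP-1 site TGANTCA was in 0 members, against 7.82%. These matches describe letters in a short window and not binding.

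In each sample 7 to 15 of the 32 members lay within 1 log2 unit of the highest value on the array, against 1.43% to 1.51% of all tested probes. For such genes differences between samples have little room above. Fos, the AP-1 subunit most used as a sign of recent stimulation, spanned 14.47 to 14.90 over the 8 samples, a range of 0.43 log2 units. Egr1, a zinc finger factor and a classical immediate early gene, spanned 14.49 to 14.96. The MAPK phosphatase gene Dusp1 spanned 14.62 to 15.12, and the constitutive chaperone gene Hspa8 spanned 14.56 to 14.96 on its brightest probe. A dimmer Hspa8 probe, detected on all 12 arrays, spanned 12.70 to 14.52. Apart from Ier2 and Btg2, which were not above background on some arrays, the widest ranges were 3.54 for Egr3, 3.32 for Nr4a2, 3.11 for Klf2 and 3.03 for Egr2. The map of all members by sample shows these narrow and wide rows side by side.

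**Figure D1:**
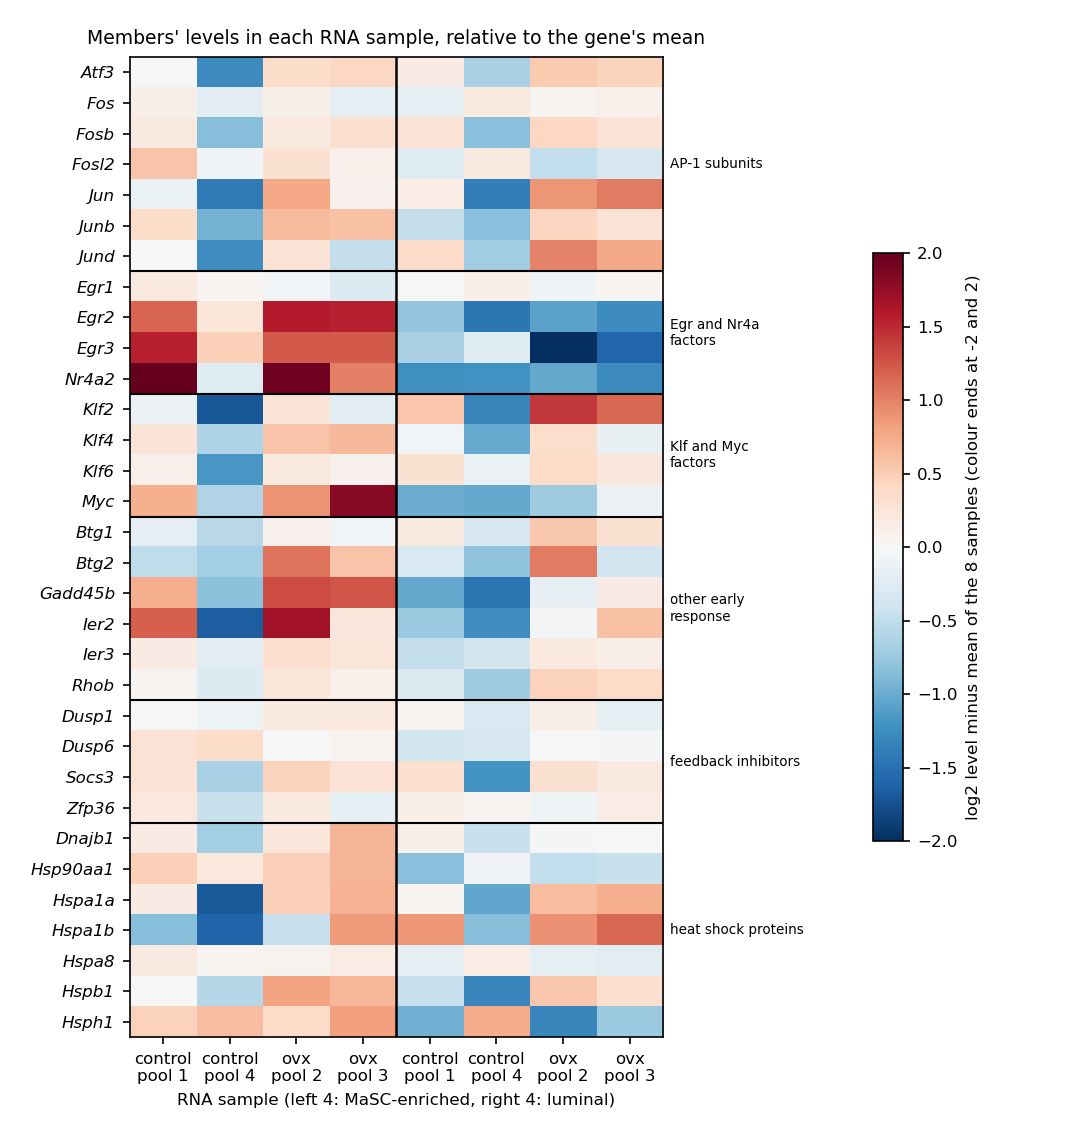
Log2 level of each of the 32 tested genes (rows, brightest probe, grouped by role) in each of the 8 RNA samples (columns), minus the gene's mean over the samples; blue is below and red above that mean. Egr2 and Egr3 were above their mean in all 4 MaSC-enriched samples, and the control pool 4 columns are the lowest of the row for 14 (MaSC-enriched) and 9 (luminal) genes.

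The clearest difference between the fractions was in Egr2 and Egr3, zinc finger factors of the Egr family, which were higher in MaSC-enriched than in luminal cells. Egr2 (probe ILMN_2623983) stood at log2 13.78 and 12.86 in MaSC-enriched cells of control pools 1 and 4 and at 14.20 and 14.16 in those of ovx pools 2 and 3. In luminal cells Egr2 stood at 11.85 and 11.17 in control and at 11.54 and 11.36 in ovx mice. The fractions did not overlap, and within a pool Egr2 was higher in MaSC-enriched cells by 1.94, 2.66, 2.80 and 1.69 log2 units in pools 1, 2, 3 and 4. In limma's test, adjusted over all tested probes, the difference was 1.81 (SE 0.405, adjusted p = 0.0343) in control and 2.73 (adjusted p = 0.00673) in ovx mice, or 3.52-fold and 6.61-fold. The call in ovx mice held in 22 of 25 alternative settings, whereas that in control mice held in 13 of 25. The difference in control mice was 1.01 (adjusted p = 0.221) without quantile normalization, and leaving out any 1 sample other than the MaSC-enriched sample of control pool 4 gave an adjusted p of 0.0637 to 0.137.

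Egr3 (probe ILMN_1227494) stood at 14.08 and 13.01 in control and at 13.76 and 13.75 in ovx MaSC-enriched cells. In luminal cells Egr3 stood at 11.88 and 12.30 in control pools 1 and 4 and at 10.54 and 10.94 in ovx pools. All MaSC-enriched samples were again above all luminal ones, and the lowest luminal values were those of ovx mice. The difference was 3.02 (SE 0.418, adjusted p = 0.00516) in ovx mice and 1.46 (adjusted p = 0.0734) in control mice, and the difference between these values, 1.56 (adjusted p = 0.963), did not pass. In control mice Egr3 passed in 5 of 25 alternative settings (limma): with the mouse pool as a random block (adjusted p = 0.0462), with all 12 arrays (adjusted p = 0.0316), with a trended robust variance (adjusted p = 0.0411), without the MaSC-enriched sample of control pool 4 (2.00, adjusted p = 0.0119) and without both samples of that pool (2.20, adjusted p = 0.0192). A second Egr3 probe, detected in 4 of 8 samples, lay between 5.55 and 6.53 throughout, and the mean of both probes differed by 1.70 in ovx mice (adjusted p = 0.00649). The calls of Egr2 and Egr3 in ovx mice were lost in fits that left 1 ovx luminal sample, where the differences stayed large. On beadchip 1 alone, whose only ovx luminal sample was that of pool 2, the differences were 2.62 and 3.19. Without the luminal sample of ovx pool 2 they were 2.81 and 2.82. Without that of ovx pool 3 only the call of Egr2 was lost, at 2.64.

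Nr4a2, an orphan nuclear receptor, stood at 11.46 and 9.17 in control and 11.36 and 10.43 in ovx MaSC-enriched cells. In luminal cells Nr4a2 stayed between 8.15 and 8.40 in all 4 samples. Its differences of 2.12 in control (adjusted p = 0.109) and 2.62 in ovx mice (adjusted p = 0.0552) did not pass the limma test. The value in control mice lay between 0.97 and 3.27 with 1 sample left out and passed without the MaSC-enriched sample of control pool 4 (adjusted p = 0.00524), and that in ovx mice passed in 13 of 25 alternative settings. Myc, a growth-promoting transcription factor, stood at 8.60 to 11.02 in MaSC-enriched and 8.18 to 9.08 in luminal samples, so its fractions overlapped. Within a pool Myc was higher in MaSC-enriched cells each time, by 0.43 to 1.94. Its difference in ovx mice was 1.77 (adjusted p = 0.0719). With the mouse pool as a block, both passed in ovx mice (limma, adjusted p = 0.0441 for Nr4a2 and 0.0451 for Myc), which raised the members past the threshold from 2 to 4.

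**Figure D2:**
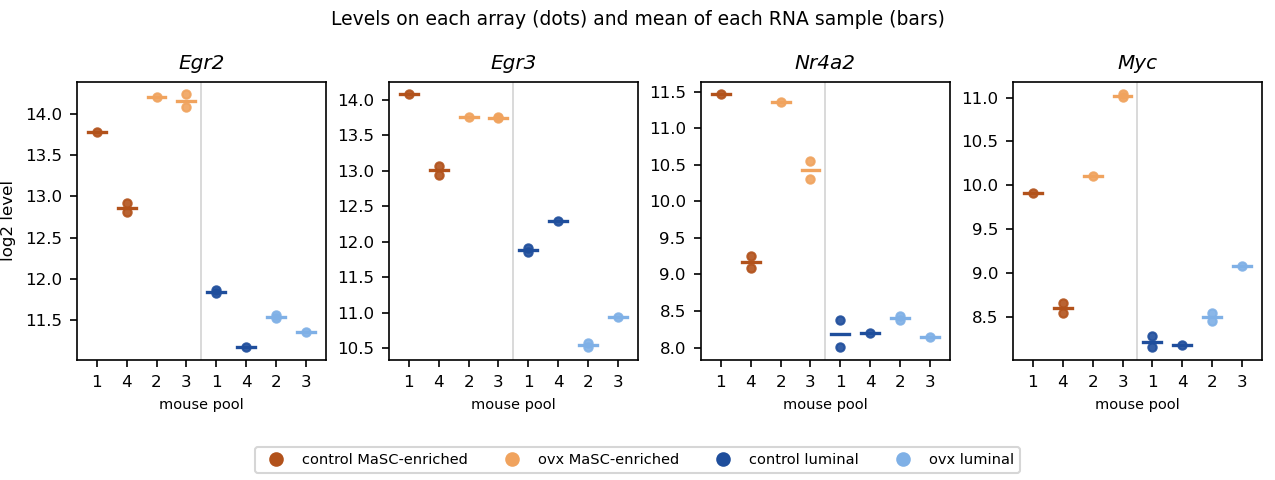
Log2 levels of Egr2, Egr3, Nr4a2 and Myc, 1 panel each with its own vertical axis, by mouse pool; dots are single arrays and bars the mean of each RNA sample, with MaSC-enriched cells left and luminal cells right of the grey line. Egr2 and Egr3 do not overlap between the fractions, and the MaSC-enriched sample of control pool 4 is the lowest of its fraction for all 4 genes.

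Of the 32 members, 1 (Egr2) passed in control mice, where 10.1% of tested probes passed, and 2 (Egr2 and Egr3) passed in ovx mice, where 12.4% passed. The median difference over members was 0.19 in control and 0.17 in ovx mice, against -0.16 and -0.11 over all tested probes. In control mice 8 members were higher without overlap (21.4% of all probes) and 1, Hspa1b, was lower (30.1%). In ovx mice 15 were higher (27%) and 8 lower (36.9%). Pool by pool, 9 members were higher in MaSC-enriched cells in all 4 pools (20.3% of probes) and 7 were lower in all 4 (30.3%). The means over the endothelial genes (4 of 5 detected, all but Kdr), the pericyte genes (4 of 4) and the blood and immune genes (4 of 5) were higher in every MaSC-enriched than in every luminal sample, and their part in the members' fraction differences was not tested.

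The 9 genes higher in MaSC-enriched cells of every pool were Egr2, Egr3, Nr4a2, Myc, Gadd45b, Ier3, Klf4, Hspb1 and Hsp90aa1. Gadd45b, a stress sensor that acts on MAPK signalling, was higher by 0.64 to 1.75. Hsp90aa1, the inducible cytosolic Hsp90, was higher by 0.27 to 1.32, and Hspb1, a small heat shock protein, by 0.25 to 0.74. Ier3, an early response protein that affects cell survival, was higher by 0.12 to 0.63, and Klf4, a zinc finger factor, by 0.22 to 0.80. Without quantile normalization the control differences of Hsp90aa1 (-0.11), Ier3 (-0.14), Hspb1 (-0.25) and Klf4 (-0.52) and the ovx difference of Ier3 (-0.05) lay below 0, while the median over all tested probes moved from -0.16 to -0.78 in control and from -0.11 to -0.31 in ovx mice. Only Egr2 was higher by over 1 log2 unit in all 4 pools (5.91% of probes), and 0 members were lower by that much (4.62%).

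The 7 members lower in MaSC-enriched cells of every pool were Jun, Jund and Atf3 of the AP-1 group, Klf2, Klf6, Btg1 and Hspa1b. Klf2, a zinc finger factor, was lower by values from -0.36 to -1.38. Jund, the AP-1 subunit that is made most constantly, was lower by values from -0.37 to -1.24, and Jun by values from -0.03 to -0.95. Hspa1b lay at -0.30 to -1.72. Atf3, a stress-induced partner of Jun proteins, lay at -0.02 to -0.62, and Btg1, an anti-proliferative protein, at -0.22 to -0.45. Klf6, a further zinc finger factor, lay at -0.14 to -1.04. None of the 7 passed the limma test in either group of mice.

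The control pools differed from each other across most members. In MaSC-enriched cells 30 of 32 members were lower in control pool 4 than in control pool 1, with a median difference of -0.86, while 44.3% of all tested probes were lower and their median was 0.12. In luminal cells 22 of 32 members were lower in control pool 4, with a median of -0.43, against 49.8% of probes and a median of 0.00. Between the ovx pools 21 and 18 members were lower in pool 3 than in pool 2, with medians of -0.07 and -0.06. With 1 sample a pool and fraction these values carry no test, and the counts include Btg2, which was not above background in either control pool. Second arrays of the same RNA differed by a median of 0.07 to 0.13 over the members, and by at most 0.77. The sample lowest of all 8 was the MaSC-enriched one of control pool 4 for 14 members (14.1% of probes) and the luminal one of that pool for 9 (12.9%).

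Jun stood at 12.80 in MaSC-enriched cells of control pool 1, at 11.52 in those of control pool 4, and at 13.71 and 13.02 in ovx pools 2 and 3. In luminal cells Jun stood at 13.08 and 11.56 in control pools 1 and 4 and at 13.82 and 13.97 in ovx pools. Control pool 4 was thus the lowest pool in both fractions. Klf2 stood at 12.96, 11.39, 13.34 and 12.86 in MaSC-enriched cells of pools 1, 4, 2 and 3. Unlike Jun, it was lower there in ovx pool 3 than in control pool 1. In luminal cells of these pools Klf2 stood at 13.64, 11.75, 14.50 and 14.24. Hspa1a stood at 12.66, 10.82, 12.97 and 13.20 in MaSC-enriched and at 12.54, 11.46, 13.12 and 13.23 in luminal cells of those pools. For these genes too control pool 4 was the lowest pool in both fractions.

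Of the AP-1 subunits, all 7 were lower in control pool 4 in MaSC-enriched cells, 5 of them by over 1 log2 unit, and 5 of 7 in luminal cells. Junb, an AP-1 subunit, was lower by values of -1.31 and -0.36 in the MaSC-enriched and luminal fractions, Jund by -1.25 and -1.07, Fosb by -1.03 and -1.12 and Atf3 by -1.28 and -0.82. Fos, near the top of the scale, differed by -0.34 and 0.38, and Fosl2, a Fos relative with slower kinetics, by -0.64 and 0.44. For Fos, arrays of the same RNA differed by up to 0.66. The Klf and Myc factors were lower in control pool 4 in both fractions, 4 of 4 in each. The Egr and Nr4a factors were lower in MaSC-enriched cells in 4 of 4 cases and in luminal cells in 1 of 4.

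Socs3, an inhibitor of cytokine receptor signalling, was lower in control pool 4 by values of -0.93 and -1.53. On their brightest probes other feedback inhibitors differed less: Zfp36, which destabilizes AU-rich mRNAs, by -0.66 and -0.08, Dusp1 by -0.09 and -0.35, and the ERK phosphatase gene Dusp6 by 0.09 and 0.07. A dimmer Dusp6 probe, detected on all 12 arrays, stood at 7.93 and 10.13 in MaSC-enriched cells of control pools 1 and 4. In luminal cells of these pools that probe stood at 8.91 and 8.84. The remaining Dusp6 probe stood at 12.62 and 12.87 in MaSC-enriched and at 11.82 and 11.61 in luminal cells. Ier2, an early response nuclear protein on a dim probe, stood at 7.81 in MaSC-enriched cells of control pool 1 and was not above background on either array of control pool 4, at least 4.03-fold lower; in luminal cells it was detected on 1 of 2 arrays of control pool 1 and not in control pool 4. Gadd45b differed by -1.54 and -0.43. Rhob, a small GTPase, differed by -0.33 and -0.44, and Btg1 by -0.40 and -0.53.

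The heat shock proteins did not move as a block. Hspa1a, Hspa1b, Hspb1 and the Hsp40 co-chaperone gene Dnajb1 were lower in control pool 4 in both fractions, by values of -1.84, -0.74, -0.55 and -0.84 in MaSC-enriched and -1.08, -1.71, -0.84 and -0.56 in luminal cells. Hsph1, an Hsp110 co-chaperone, went the other way: its luminal level was 10.49 in control pool 1, 12.19 in control pool 4, and 10.15 and 10.70 in the ovx pools. Hsp90aa1 in luminal cells was likewise highest in control pool 4, at 11.92 against 11.15 to 11.54. Hspa1a and Hspa1b cannot be told apart with certainty, since probes for one copy may take up RNA of the other. Their 5 kept probes were all lower in control pool 4 in both fractions. For 1 of them, an Hspa1a probe detected in 6 of 8 samples, both control MaSC-enriched values (6.72 and 5.58) lay below the detection floors of their arrays. Among 37 other tested heat shock genes and factors, 11 were lower and 26 higher in control pool 4 in each fraction, with medians of 0.30 and 0.28, against 44.3% and 49.8% of probes lower. Between the ovx pools the list gave like counts, 11 and 8 lower in pool 3, with medians of 0.18 and 0.16, against 49.2% and 52% of probes.

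**Figure D3:**
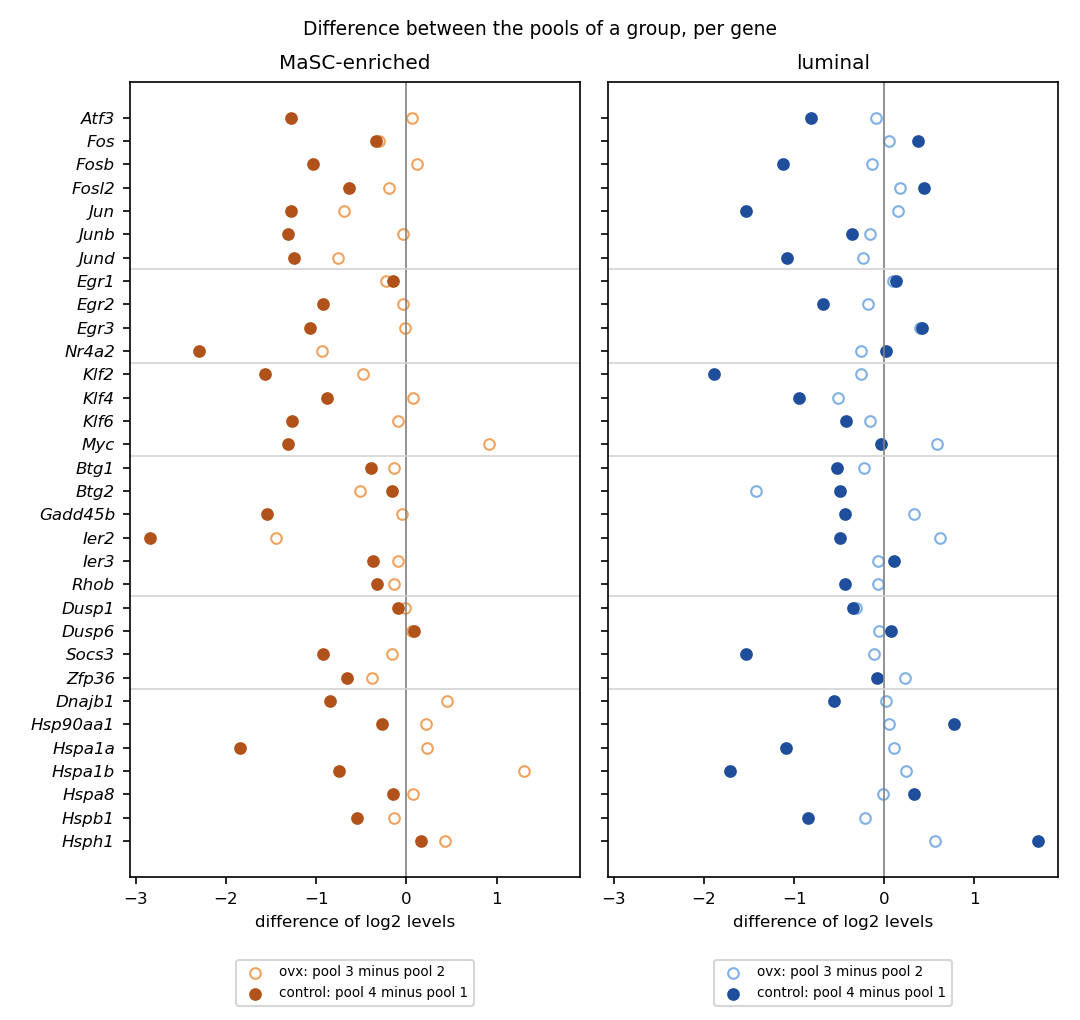
Difference of log2 levels between the pools of a group for each of the 32 tested genes, MaSC-enriched cells left and luminal cells right; filled dots are control pool 4 minus control pool 1 and open dots ovx pool 3 minus ovx pool 2. Filled dots lie left of 0 for 30 genes in MaSC-enriched and 22 in luminal cells, while open dots have medians of -0.07 and -0.06.

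The size of this pool difference depended on how the arrays were scaled. With background-corrected values centred on each array's median over all probes, without quantile normalization, the median over members in MaSC-enriched cells was 0.46 and 8 members were lower in control pool 4, but the median over all tested probes was 1.05. Relative to all tested probes, members lay at -0.98 in the main scaling and at -0.58 without quantile normalization, with 31 and 27 of 32 below the median of all probes. In luminal cells the values relative to all probes were -0.44 and -0.28, with 22 and 20 of 32 below. The deposited normalized values gave medians of -0.86 and -0.39. The proliferation genes moved in the opposite direction in the same samples, from 7.56 to 11.09 in MaSC-enriched and from 8.59 to 11.46 in luminal cells, and the array of the MaSC-enriched sample of control pool 1 was the one with the higher detection floor. Their part in the difference was not tested.

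Against this spread, no member passed the test for ovariectomy. In MaSC-enriched cells 0 of 32 members passed in limma, where 0.0762% of probes (16) passed; 4 had an unadjusted p under 0.05 (Btg2, Hspb1, Gadd45b and Myc), against 1811 of 20995 probes. In luminal cells 0 members passed, where 0.157% of probes (33) passed, and 5 had an unadjusted p under 0.05 (Hspb1, Egr3, Rhob, Jun and Gadd45b), against 1511 probes. The median difference over members was 0.58 in MaSC-enriched and 0.59 in luminal cells, with 29 and 24 of 32 members above 0, and the medians over all probes were 0.07 and 0.02. Without overlap, 18 members were higher in ovx MaSC-enriched cells (19.8% of probes) and 2 lower (12.5%), and 15 were higher in ovx luminal cells (26.9%) and 3 lower (24.7%).

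Those medians differed with the control pool. In MaSC-enriched cells the ovx mean lay above control pool 1 by a median of 0.14, close to that over all probes (0.14), and above control pool 4 by 1.14, against 0.02 over all probes. Both ovx samples were above control pool 1 for 18 members (44.2% of probes) and above control pool 4 for 29 (38.4%). The ovx mean was over 1 log2 unit above control pool 1 for Hspa1b (1.05) and nominally for Btg2, against 12.18% of probes. For Btg2 the ovx mean of 6.64 lay below the detection floor of the control pool 1 array (7.29). Against control pool 4 the ovx mean was over 1 log2 unit higher for 19 members, against 10.99% of probes. Among these members were Ier2 and Btg2, which were not above background in that pool. In luminal cells the medians were 0.25 and 0.69, against 0.02 and 0.02, and both ovx samples were above control pool 1 for 17 members (39.3%) and above control pool 4 for 23 (44.4%).

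**Figure D4:**
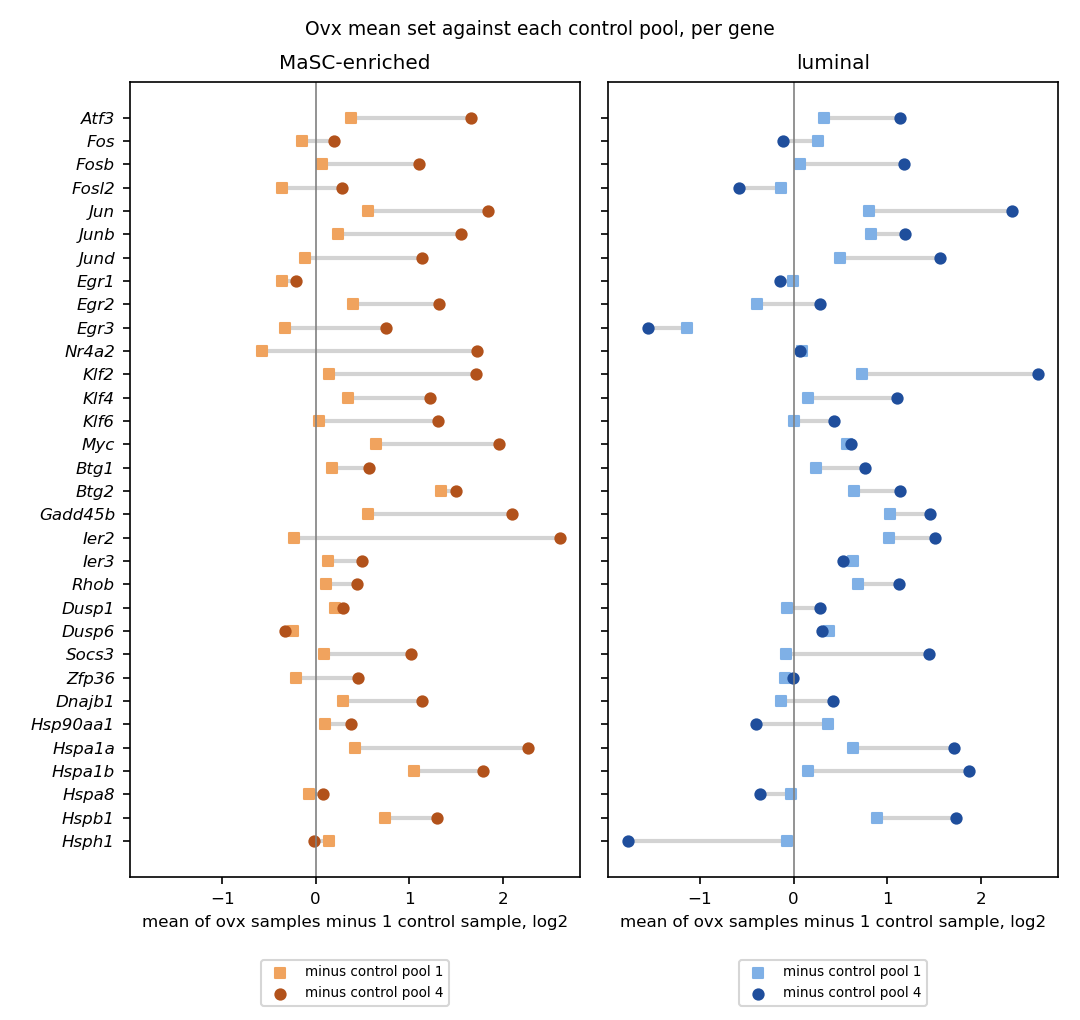
Mean of the ovx samples minus 1 control sample, in log2 units, for each of the 32 tested genes, MaSC-enriched cells left and luminal cells right; squares use control pool 1, dots use control pool 4, and the grey bar joins both. In MaSC-enriched cells the squares have a median of 0.14 and the dots of 1.14; in luminal cells these are 0.25 and 0.69.

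Set against control pool 4 alone, the ovx mean was higher by 2.10 for Gadd45b and 2.27 for Hspa1a in MaSC-enriched cells. In luminal cells it was higher by 2.34 for Jun and 2.61 for Klf2. Against control pool 1 alone these values were 0.56, 0.42, 0.81 and 0.73. Each of them rests on 1 control sample. The skeletal muscle genes, high in ovx luminal samples, and Lep and Adipoq, higher in ovx MaSC-enriched samples, moved with ovariectomy in the same samples, and their part in the members' values was not tested.

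Hspb1 had the smallest p in luminal cells. Its levels were 12.76 and 11.91 in control and 13.76 and 13.55 in ovx luminal cells, and 13.20 and 12.65 in control and 14.01 and 13.88 in ovx MaSC-enriched cells. The ovx samples were higher than both control pools in both fractions, by 1.32 (SE 0.383, adjusted p = 0.423 in limma) in luminal and 1.02 (adjusted p = 0.510) in MaSC-enriched cells, which did not pass. Set against control pool 1 alone, Hspb1 still lay at 0.74 and 0.90 in the MaSC-enriched and luminal fractions.

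Gadd45b, 13.53 and 11.98 in control and 14.10 and 14.06 in ovx MaSC-enriched cells, lay at 11.78, 11.34, 12.64 and 12.97 in the luminal samples. Its differences of 1.33 and 1.24 had adjusted p-values of 0.518 and 0.673 in limma. Btg2, an anti-proliferative p53 target, was not detected on any control array of either fraction, and its differences did not pass (limma, adjusted p = 0.471 and 0.802). Its ovx MaSC-enriched levels of 6.90 and 6.38 lay below the detection floor of the control pool 1 array (7.29). In ovx luminal cells Btg2 stood at 6.86 in pool 2 and at 5.44 in pool 3, below the floor of that array (5.74). No bound on its fold is therefore given. Myc did not pass in either fraction, with differences of 1.30 (adjusted p = 0.540) and 0.59 (adjusted p = 0.859). Rhob differed by 0.91 in luminal cells (adjusted p = 0.537), with 12.79 and 12.35 in control and 13.51 and 13.45 in ovx mice.

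Egr3 was the member that lay lower in ovx than in both control samples by the most, at -1.35 in luminal cells (SE 0.418, limma adjusted p = 0.470), with -1.14 against control pool 1 and -1.56 against control pool 4. Fosl2 (-0.36) and Hspa8 (-0.19) were the other 2 luminal members lower without overlap. Over 3 Hspa8 probes the luminal ovx effect ranged from -0.83 to -0.07. In MaSC-enriched cells the members lower without overlap were Dusp6 (-0.29) and Egr1 (-0.28), both at 0.12 without quantile normalization. For Egr1, arrays of the same RNA differed by up to 0.50, more than that difference. For the difference between the ovx effects of the fractions, 0 of 32 members passed, where 0% of probes (0) passed; Egr3, at 1.56, was the 1 member with an unadjusted p under 0.05, against 952 probes.

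Genes of the same pathways were read from lists beside the members. Of 46 other immediate early and early response genes, 40 were tested. In the fraction comparison 3 passed in control mice, against 10.1% of tested probes, and 4 in ovx mice, against 12.4%. All were higher in MaSC-enriched cells. In control and ovx mice Arc, a synaptic immediate early gene, was higher by 4.31 and 4.62, and Ccn2, a matricellular protein, by 3.53 and 5.07. Vegfa, an angiogenic ligand, was higher by 1.62 in control mice. In ovx mice Gem, a small GTPase, was higher by 2.54 and Egr4, the fourth Egr family factor, by at least 13.3-fold. For ovariectomy 0 of these 40 passed in limma in either fraction, with medians of 0.30 and 0.24. Unadjusted p was under 0.05 for 9 and 8, against 1811 and 1511 of 20995 probes. The smallest p-values belonged to Klf5, a zinc finger factor, at -1.65 (adjusted p = 0.194), and Vegfa at -1.08 (adjusted p = 0.329) in MaSC-enriched cells, and in luminal cells to Mafk, a small Maf protein, at 1.77 (adjusted p = 0.213) and Hbegf, an EGF receptor ligand, at 1.39 (adjusted p = 0.288). In the difference of effects 0 passed, and Vegfa (-1.72) and Klf5 (-1.63) had the smallest p. Between the control pools 28 of the 40 were lower in pool 4 in MaSC-enriched cells and 17 in luminal cells (44.3% and 49.8% of probes), with medians of -0.25 and 0.09.

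Of 36 genes of the ERK pathway, serum response factors and their inhibitors, 24 were tested. Between the fractions 2 passed as higher and 3 as lower in control mice, against 10.1% of tested probes. In ovx mice 1 passed as higher and 2 as lower, against 12.4%. In MaSC-enriched against luminal cells, Etv5, an ETS factor downstream of ERK, was higher by 2.67 in control and 2.17 in ovx mice, and Etv4 by 2.24 in control mice. The MAPK phosphatase genes Dusp16 (-1.62 and -2.37) and Dusp4 (-1.54 and -2.49) were lower in MaSC-enriched cells of control and ovx mice, and Creb1, the factor at cAMP response elements, in control mice (-1.27). In the ovx comparisons 0 of 24 passed in limma, with 5 and 4 at an unadjusted p under 0.05, against 1811 and 1511 of 20995 probes. Srf itself, the factor at CArG boxes, had the smallest luminal p: 12.29 and 11.76 in control and 13.79 and 13.94 in ovx mice, a difference of 1.84 (adjusted p = 0.104), followed by the phosphatase gene Dusp10 at 1.74 (adjusted p = 0.313). In MaSC-enriched cells Creb1 (1.65, adjusted p = 0.123) and Etv4 (-2.33, adjusted p = 0.196) had the smallest p, and in the difference of effects 0 passed, with Etv4 at -3.43 and Srf at -1.49.

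Of 42 other heat shock genes and their factors, 37 were tested. Between the fractions 2 passed in control mice, against 10.1% of tested probes. In ovx mice 5 passed as higher and 1 as lower, against 12.4%. The small heat shock protein gene Hspb8 was higher in MaSC-enriched cells by 2.68 in control and 2.29 in ovx mice, and Cryab, a small heat shock protein of muscle and lens, by 2.23 in control mice. In ovx mice Serpinh1, a collagen chaperone (2.69), Dnajb9, an endoplasmic reticulum co-chaperone (1.77), Hspb6 (1.37) and Hspb2 (at least 2.54-fold), both small heat shock proteins, were also higher, and Hspa4, an Hsp110 family chaperone, was lower (-1.32). For ovariectomy 0 of 37 passed in limma in either fraction, with medians of -0.20 and -0.07. In each fraction 3 had an unadjusted p under 0.05, against 1811 and 1511 of 20995 probes. Hspb2 at 1.15 (adjusted p = 0.281) and Hspb6 at 0.94 (adjusted p = 0.411) had the smallest p in MaSC-enriched cells. In luminal cells these were Dnajb4, an Hsp40 (1.26, adjusted p = 0.520), and Hspb8 (0.90, adjusted p = 0.642). In the difference of effects 0 passed, with Hspb2 at 1.22 and Hspa4 at -1.26.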

How the data were processed

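RNA of 8 samples in 4 groups was run on 12 arrays. Beadchip 1 held all MaSC-enriched samples, but of the luminal ones only those of control pool 1 and ovx pool 2. Beadchip 2 held all luminal samples, but of the MaSC-enriched ones only those of control pool 4 and ovx pool 3. Fits on 1 beadchip thus also left out samples, and beadchip and sample cannot be told apart in them. The deposited table gives bead intensity values and detection p-values per probe for each array, per the file headers, without background subtraction or scaling; the authors' normalized table holds log2 values (Spearman correlation with intensity 1 on each array). BeadStudio and limma are listed, per the submitters' processing notes, with versions and roles not given in the sources used here. Of 45281 probes, 34885 had 1 gene symbol in the platform annotation, 18 several and 10378 none.

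With limma 3.58.1 in R 4.3.3, neqc corrected background, added an offset of 16, quantile normalized and took log2; arrays of 1 RNA were averaged. Probes detected at p under 0.05 in at least 2 samples were kept (20995, 46.4%), and the brightest kept probe stands for a gene. A model with 4 group means (4 residual and 3.22 prior degrees of freedom) was tested two-sided, with Benjamini-Hochberg adjustment over all kept probes at 0.05, in 5 comparisons; the smallest exact p for 2 against 2 is 0.333, so p-values rest on the spread limma shares across probes. The fit was tested on simulated data. Bounds ("at least") raise arrays of the lower group to their detection floor. The number of arrays and samples limits precision.

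The pool pairs the fractions, per the labels. Deviations from group means of paired samples correlated at 0.367 (control) and 0.135 (ovx). Control and ovx samples that share a number but no pool gave 0.587 and 0.279. Alternatives were other offsets, background corrections, scalings, filters and variance models, the deposited table, single beadchips, left-out samples and pools, and replicate blocks. The members and lists were chosen with earlier results of these data known. Named were all members, and from each list the genes past the threshold or, where none passed, the pair with the smallest p. The floor at detection and the centring on tested probes were added after seeing the data.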

Additional observations from a re-analysis of the deposited data

Results flagged for a closer look

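The brightest probe of Dusp6, which encodes an ERK phosphatase, differed in opposite directions with ovariectomy in the fractions. In MaSC-enriched cells both ovx samples (14.39 and 14.46) lay below both control samples (14.67 and 14.75), and in luminal cells both ovx samples (14.40 and 14.34) lay above both control samples (13.99 and 14.06). The ovx effect was -0.29 in MaSC-enriched and 0.34 in luminal cells, and the effect in MaSC-enriched minus that in luminal cells was -0.63 (SE 0.383). That difference did not pass in limma (adjusted p = 0.9999). Over 3 Dusp6 probes the ovx effect ranged from -0.37 to -0.28 in MaSC-enriched cells and from -0.07 to 0.39 in luminal cells, so the probes did not share a sign there; the difference of effects ranged from -0.67 to -0.30. Under 24 alternative settings the effect in MaSC-enriched cells lay between -0.46 and 0.12, above 0 in 1 of them (without quantile normalization).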

How the results depend on the processing

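Of 22 gene differences with an unadjusted p under 0.05, each followed under up to 25 alternative settings, 0 changed sign. Over these settings, fits with 1 sample left in a group included, 17 times a call was lost and 44 times one was gained in limma. Over all 32 members, the sign changed in at least 1 setting for 11 (ovx, MaSC-enriched), 9 (ovx, luminal), 24 (difference of effects), 24 (fractions, control) and 9 (fractions, ovx), among differences of up to 1.19 in size. Without quantile normalization, members lower in the second pool numbered 8 (from 30) in control and 9 (from 21) in ovx MaSC-enriched cells and 7 (from 18) in ovx luminal cells, 7 also with centring on tested probes. The causes were not tested.

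For ovx in MaSC-enriched cells, 16 probes passed, and this became 26 without the filter or with the mean of a gene's probes, 1 with the stricter filter, the floor at detection or the centring on tested probes, 81 with all 12 arrays, 0 on either beadchip alone, 436 and 410 without control pool 1 or 4, 36 with the replicate number as a block, and 0 to 583 with 1 sample left out. The members' median of 0.58 became 1.14 without quantile normalization, 1.17 on beadchip 2, 1.14 without control pool 1 and 0.14 without control pool 4 (0.14 to 1.14 with 1 sample left out); 2 members passed without control pool 1.

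For ovx in luminal cells, 33 probes became 55 without quantile normalization, 11 with the stricter filter, 8 with the floor, 137 with 12 arrays, 0 and 1 on beadchips 1 and 2, 690 without control pool 1 (2 members passed), 56 with a trended robust variance, 52 with the replicate number as a block and 0 to 82 with 1 sample left out. For the difference of effects, 0 probes became 2 with an offset of 50, the deposited table, the mean of probes or the pool as a random replicate block, 4 without background correction, 1 without the filter and 9 with 12 arrays; the median of 0.15 became 0.55 on beadchip 2 and -0.31 to 0.52 with 1 sample left out.

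For the fractions in control mice, 2122 probes became 181 on beadchip 1, 861 and 4528 without control pool 1 or 4, and 656 to 5503 with 1 sample left out. The 1 member became 0 without quantile normalization, on either beadchip or without control pool 1, 2 with 12 arrays or the pool as a random block, 3 with the robust variance, 4 without control pool 4 and 0 to 6 with 1 sample left out; the median of 0.19 became -0.35 without quantile normalization, -0.18 on beadchip 2 and -0.10 to 0.55 with 1 sample left out. For the fractions in ovx mice, 2596 probes became 262 on beadchip 1, 4337 without either control pool and 508 to 3779 with 1 sample left out. The 2 members became 0 on beadchip 1, 4 on beadchip 2, with 12 arrays or with the pool as a fixed or random block, 8 without either control pool and 0 to 5 with 1 sample left out. The replicate blocks changed no other count by over 1.5 times.

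Signals near the top of the array or near its floor, 2 samples a group and the higher floor of 1 array limit what these values can separate.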
